A study of Rattus norvegicus with 12 samples.

Results

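The cell cycle genes described here are 8 of the 34733 rows of the count files, chosen as a list of named genes: Mki67 (ENSRNOG00000028137), Top2a (ENSRNOG00000053047), Cdk1 (ENSRNOG00000000632), Ccna2 (ENSRNOG00000015423), Ccnb1 (ENSRNOG00000058539), Pcna (ENSRNOG00000021264), Ccnd1 (ENSRNOG00000020918) and Cdkn1a (ENSRNOG00000000521). RNA of the left ventricle (LV) was sequenced in 12 neonatal rats, Sprague-Dawley pups of both sexes operated on at postnatal day 1. In abdominal aortic banding surgery (ABS) a suture narrowed the abdominal aorta below the renal arteries, and the sham group had no banding. Each of the 4 groups (ABS and sham at postnatal day 3, P3, and at postnatal day 7, P7) held 3 libraries. The sample labels name left ventricular myocardiocytes and the study's methods name whole LVs. Which of these holds was not tested here. The identifiers matched 0 entries of the RefSeq table used, so cell type markers were not looked up by symbol. The symbols of the 8 genes are those given with their identifiers. Total counts were 14268210 to 17286278 per library, and each of the 8 genes passed the filter on low counts in every comparison.

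The cell cycle runs through cyclins that switch on cyclin-dependent kinases in turn, and through inhibitors that hold those kinases back. Rodent cardiomyocytes still divide around birth and leave the cycle in the first weeks of life, while fibroblasts, endothelial cells and other cells of the ventricle also divide. Ccnd1 encodes cyclin D1, which acts in G1. Pcna encodes the sliding clamp of DNA polymerase, used in S phase. Ccna2 encodes cyclin A2 of S phase and G2, and Top2a encodes the topoisomerase that untangles DNA for mitosis. Ccnb1 encodes cyclin B1 and Cdk1 the kinase it activates at entry into mitosis. Mki67 encodes Ki67, the common protein marker of cycling cells, and Cdkn1a encodes p21, an inhibitor of cyclin-dependent kinases and a target of p53. In whole tissue, fewer cycling cells and less RNA per cycling cell cannot be told apart.

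Promoters of genes of G2 and mitosis often carry CCAAT boxes together with a cell cycle genes homology region (CHR), through which they are repressed in resting cells. Promoter sequences from RefSeq (build GRCr8, 250 bases before to 50 after the start of the gene) were found for 6 of the 8 genes. Those of Mki67, Cdk1, Ccnb1 and Cdkn1a are shown because these genes cover the cases met below. Capitals mark, on either strand, the CCAAT box (letters CCAAT), the CHR (letters TTTGAA), its variant (letters TTCGAA) and, in Cdkn1a, a p53 half-site.
Mki67, chr1:199952544-199952843, minus strand: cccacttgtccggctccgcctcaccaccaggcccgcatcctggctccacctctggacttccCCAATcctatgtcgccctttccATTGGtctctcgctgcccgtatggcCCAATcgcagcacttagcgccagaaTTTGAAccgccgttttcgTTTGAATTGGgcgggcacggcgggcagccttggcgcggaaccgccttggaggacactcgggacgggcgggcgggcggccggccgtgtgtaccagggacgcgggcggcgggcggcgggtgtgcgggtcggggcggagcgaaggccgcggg
Cdk1, chr20:19265043-19265342, plus strand: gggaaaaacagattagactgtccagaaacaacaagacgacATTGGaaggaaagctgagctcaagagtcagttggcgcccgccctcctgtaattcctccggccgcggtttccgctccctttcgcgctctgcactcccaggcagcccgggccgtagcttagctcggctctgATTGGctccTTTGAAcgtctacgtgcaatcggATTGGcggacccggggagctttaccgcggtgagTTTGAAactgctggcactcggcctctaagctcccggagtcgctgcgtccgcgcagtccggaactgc
Ccnb1, chr2:33655176-33655475, minus strand: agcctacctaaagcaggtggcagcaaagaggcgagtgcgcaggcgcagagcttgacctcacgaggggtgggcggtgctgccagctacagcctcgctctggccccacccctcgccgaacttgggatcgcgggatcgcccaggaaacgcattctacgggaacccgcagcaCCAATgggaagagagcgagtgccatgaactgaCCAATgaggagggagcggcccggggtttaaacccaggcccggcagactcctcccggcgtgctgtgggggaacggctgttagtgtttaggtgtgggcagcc
Cdkn1a, chr20:7150682-7150981, plus strand: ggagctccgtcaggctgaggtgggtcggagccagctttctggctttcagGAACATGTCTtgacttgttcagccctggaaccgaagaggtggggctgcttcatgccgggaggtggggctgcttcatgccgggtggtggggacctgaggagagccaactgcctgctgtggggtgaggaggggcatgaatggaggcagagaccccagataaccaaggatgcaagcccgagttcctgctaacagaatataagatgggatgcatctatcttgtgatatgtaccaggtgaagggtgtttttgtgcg

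The Mki67 window held 2 matches of TTTGAA and 4 of CCAAT, 1 of which shared a base with a TTTGAA match. The Cdk1 window held 2 matches of TTTGAA, at -72 and -16 from the start, and 3 of CCAAT. Neither of the 2 CHR spellings searched was found in the Ccnb1 window, which held 2 matches of CCAAT at -82 and -50. Other spellings of the CHR were not searched, so its absence from this window is not shown. Top2a, not shown, held 1 match each of TTTGAA and TTCGAA and 4 of CCAAT, and Pcna held 1 match of CCAAT alone. Cdkn1a held none of these 3 and had 1 exact match of the p53 half-site, at -201. Near matches, and windows at other starts of a gene, were not searched. Among all 33469 promoters of this length, CCAAT was found in 37.5%, TTTGAA in 18.3%, TTCGAA in 1.69% and a p53 half-site in 7.98%. These matches describe the letters in the windows and not sites in use.

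The libraries of P3 stood apart from each other before any gene was considered. At least 1 count was found for 18579 to 18982 genes in each library of P7. At P3, ABS replicates 1, 2 and 3 had 15266, 15719 and 17530 such genes, and their sham counterparts had 18359, 15451 and 17259, so every library of P3 lay below every library of P7. The common biological coefficient of variation across genes was 0.544 in the comparison of ABS with sham at P3 and 0.148 at P7. The differences between the days over both surgery groups are therefore given with and without ABS replicates 1 and 2 and sham replicate 2, the 3 libraries with the fewest detected genes. That omission leaves 1 ABS library (replicate 3) and 2 sham libraries of P3, too few for a correlation.

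The first question was how these genes differed between P3 and P7, the days over which the study followed cell cycle activity. Ccnb1, Pcna and Cdk1 fell from P3 to P7 when all 12 libraries were fitted with surgery as a term. Ccna2 and Top2a had lower and Ccnd1 and Cdkn1a higher estimates at P7 without passing the test, and the estimate of Mki67 was close to 0. Thus 3 of the 8 genes passed the threshold, which was set at an adjusted p of 0.05 in the quasi-likelihood test of edgeR over 15236 genes, and all 3 were lower at P7. Among all genes tested, 11.5% passed as lower and 5.59% as higher at P7. The median log2 fold change was -0.48 over the 8 genes and 0.03 over all genes. Levels are given in CPM, the count of a gene as a share of its library's total on a fixed scale, with each total corrected for composition by the trimmed mean of M values (TMM).

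**Figure D1:**
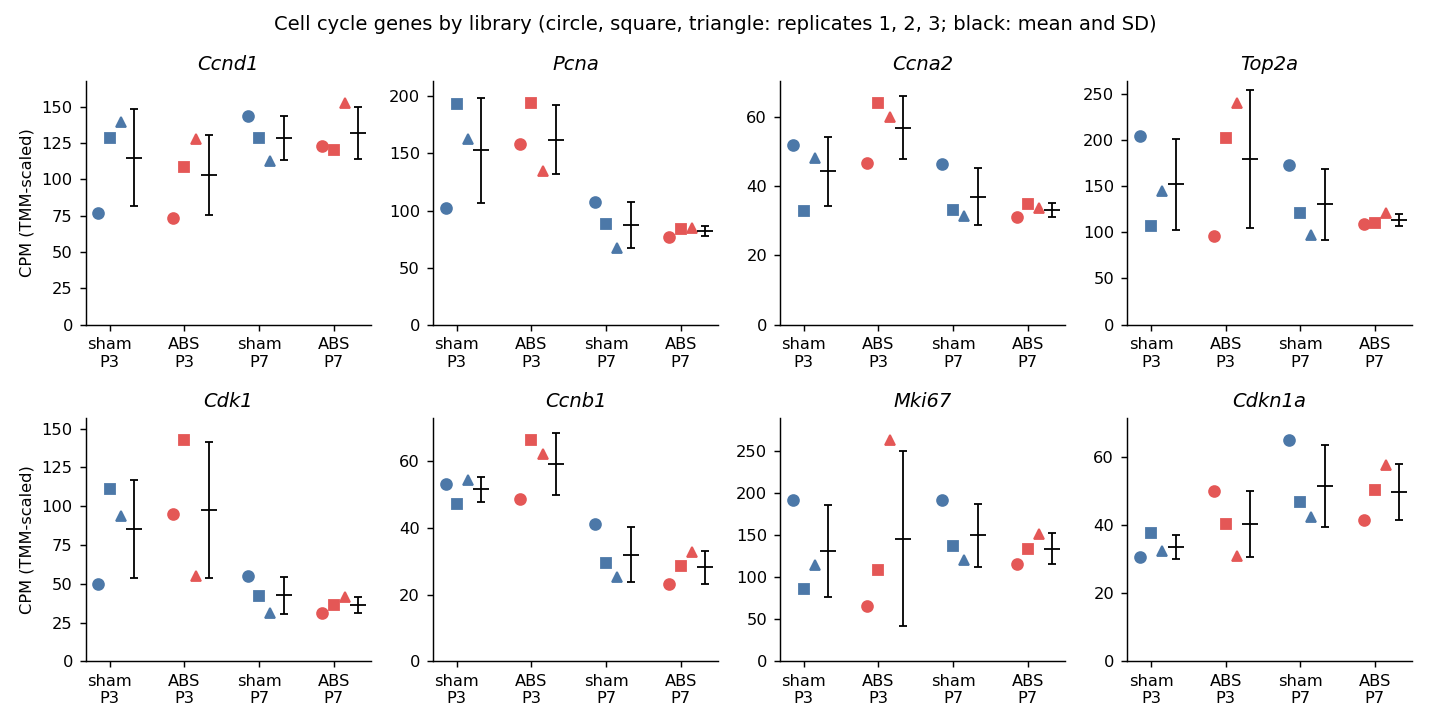
Level of each gene in CPM (vertical axis, from 0) in each of the 12 libraries by group, with the mean and SD of 3 libraries in black. Ccnb1 is the gene whose 6 libraries of P7 (up to 41.1 CPM) all lie below its 6 libraries of P3 (from 47.3 CPM), while Mki67 spans 65.8 to 262.8 CPM at P3 alone.

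Cyclin B1 gave the cleanest separation of the days. Ccnb1 was at 53, 47.3 and 54.2 CPM in sham replicates 1, 2 and 3 of P3 and at 48.7, 66.4 and 62.2 CPM in the ABS replicates of P3. At P7 it was at 41.1, 29.5 and 25.4 CPM in the sham group and 23.1, 28.7 and 32.7 CPM in the ABS group. All 6 libraries of P7 lay below all 6 of P3, as did 5.05% of the genes tested. The fall was 1.84-fold (log2 fold change -0.88, standard error 0.16, edgeR adjusted p = 0.0083). An exact permutation test of 6 against 6 libraries gave p = 0.00216, two-sided and not adjusted over the 8 genes, which is the smallest it can give. Without the 3 libraries with the fewest detected genes, the log2 fold change was -0.92 with an edgeR adjusted p of 0.027. With detected genes as a covariate it was -0.91 and the adjusted p 0.0885, so that the call was lost at an unchanged size.

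The kinase partner moved further on average but depended more on which libraries of P3 were used. Cdk1 was at 50.1, 111.3 and 93.8 CPM in sham replicates 1, 2 and 3 of P3 and at 95.2, 142.7 and 54.8 CPM in the ABS replicates. Its values at P7 were 54.8, 42.3 and 30.9 CPM in the sham libraries and 31.2, 36.1 and 41.4 CPM in the ABS group. Sham replicate 1 and ABS replicate 3 of P3 were thus within the range of P7, and the other 4 libraries of P3 were above it. Cdk1 fell 2.32-fold (log2 fold change -1.21, standard error 0.26, edgeR adjusted p = 0.0142, exact permutation p = 0.00649). Without the 3 libraries with the fewest detected genes, its log2 fold change was -0.71 and its edgeR adjusted p 0.107. Adjusted for the number of detected genes, it was -0.18 with an adjusted p of 0.747. The 3 libraries with the fewest detected genes were also the 3 with the highest level of Cdk1.

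Pcna, the replication clamp, was at 102.6, 193.4 and 162.6 CPM in the sham libraries of P3 and at 157.9, 194.1 and 134.6 CPM in the ABS group of P3. At P7 it was at 107.1, 88.5 and 66.9 CPM and at 76.7, 84.3 and 84.6 CPM in the sham and ABS groups. The days overlapped by a single pair of libraries, sham replicate 1 of either day. The fall was 1.86-fold (log2 fold change -0.90, standard error 0.17, edgeR adjusted p = 0.0102, exact permutation p = 0.00433). It was -0.66 on the log2 scale without the 3 libraries with the fewest detected genes (edgeR adjusted p = 0.0662) and -0.31 with detected genes as a covariate (adjusted p = 0.395).

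Ccna2 lay at the threshold itself. Its 6 libraries of P3 ranged from 33 to 64.0 CPM with a median of 50, and those of P7 from 31.0 to 46.3 CPM with a median of 33.5. The log2 fold change was -0.52 (95% interval -0.88 to -0.16, edgeR adjusted p = 0.0501), and DESeq2 gave an adjusted p of 0.0309. Without the 3 libraries with the fewest detected genes it was -0.61 (edgeR adjusted p = 0.052). Top2a ranged from 95.7 to 239.6 CPM (median 173) at P3 and from 97.3 to 172.4 CPM (median 115) at P7, with a log2 fold change of -0.44 (interval -0.96 to 0.08, edgeR adjusted p = 0.189), and -0.70 without those 3 libraries (adjusted p = 0.0787). With detected genes as a covariate, the log2 fold changes were -0.70 for Ccna2 and -0.97 for Top2a (edgeR adjusted p = 0.162 and 0.145). The days overlapped for both genes.

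Mki67 gave no difference between the days that could be told from its spread. It was at 191.3, 86.4 and 115.0 CPM in the sham group of P3, at 65.8, 108.1 and 262.8 CPM in the ABS group of P3, at 192.0, 137.2 and 120.1 CPM in the sham group of P7 and at 115.2, 133.7 and 151.7 CPM in the ABS group of P7. Its mean was 138 ± 74.5 CPM (SD, n = 6) at P3 and 142 ± 27.9 CPM (SD, n = 6) at P7. The log2 fold change was 0.03 with a 95% interval of -0.63 to 0.70 (edgeR adjusted p = 0.941). Its sign depended on the libraries of P3, for it was -0.43 without the 3 libraries with the fewest detected genes and -0.91 with detected genes as a covariate (edgeR adjusted p = 0.311 and 0.165).

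The G1 cyclin and the inhibitor had higher estimates at P7, but neither passed the edgeR threshold. Cdkn1a was at 30.8, 37.6 and 32.3 CPM in the sham group of P3 and at 50.2, 40.3 and 30.9 CPM in the ABS group of P3. It was at 65.1, 46.9 and 42.4 CPM in the sham group and at 41.5, 50.3 and 57.8 CPM in the ABS group of P7. ABS replicate 1 of P3 was the only library of P3 within the range of P7. The log2 fold change of Cdkn1a was 0.46 (95% interval 0.11 to 0.81, edgeR adjusted p = 0.0651), and DESeq2 gave an adjusted p of 0.0483. Without the 3 libraries with the fewest detected genes it was 0.69 with an edgeR adjusted p of 0.0511. With detected genes as a covariate it was 0.92 with an edgeR adjusted p of 0.0616. Ccnd1 ranged from 73.2 to 139.6 CPM (median 118) at P3 and from 113.0 to 152.5 CPM (median 126) at P7, with a log2 fold change of 0.26 (interval -0.12 to 0.64, edgeR adjusted p = 0.279), and 0.16 without those 3 libraries (adjusted p = 0.660).

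The same change was then examined within each surgery group, 3 libraries of P7 against 3 of P3, where the smallest exact permutation p is 0.1. With edgeR, 0 of the 8 genes passed the adjusted threshold in either group, as against 0.00684% of the genes tested within the sham group and 0.0138% of those within the ABS group. In the sham group, Cdk1, Ccnb1 and Pcna had an unadjusted p under 0.05 with a lower level at P7, as did 10.2% of genes, and Cdkn1a with a higher level, as did 5.94%. Their log2 fold changes were -1.0, -0.69, -0.81 and 0.61. In the ABS group, Cdk1, Ccna2, Ccnb1 and Pcna had an unadjusted p under 0.05, all lower at P7 as were 11.5% of genes, with log2 fold changes of -1.46, -0.80, -1.10 and -1.01. The libraries of the days did not overlap for Ccnb1 and Cdkn1a in the sham group, against 30% of genes in either direction, and for Cdk1, Ccna2, Ccnb1 and Pcna in the ABS group, against 13.7% of genes in that direction. DESeq2 called 0 of the 8 genes and 412 genes in all in the sham group, and these same 4 among 529 genes in all in the ABS group. The edgeR counts also changed when 1 library was left out. Without ABS replicate 3 of P3, edgeR called 4 of the 8 genes in the ABS group, but also 7468 genes in all, and without sham replicate 1 of P3 it called 2 of the 8 in the sham group and 4820 genes in all. The log2 fold changes were then -1.74, -0.77, -1.06 and -1.13 for Cdk1, Ccna2, Ccnb1 and Pcna (ABS). For Cdk1 and Pcna (sham) they were -1.28 and -1.04. With every library kept, limma voom with a weight per library called 4 of the 8 genes in each group, among 6707 genes in all (sham) and 6791 (ABS). Mki67, at -0.14 in the ABS group (edgeR adjusted p = 0.866), was called there as lower at P7 with detected genes as a covariate, at -2.11 (adjusted p = 0.0186), in a fit that called 1047 genes in all. Its estimate was -0.99 without the 3 libraries with the fewest detected genes, which leaves 1 ABS library of P3. The sign of Mki67 was the other way in limma voom with a weight per library (0.40) and without ABS replicate 3 of P3 (0.59).

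The second question was whether banding, used in the study to load the neonatal LV with pressure, went with a difference in these genes. The study measured blood pressure only at ages later than P7. At P7, where libraries of a group were more alike, edgeR called 0 of the 8 genes between ABS and sham, and 0 had an unadjusted p under 0.05. Across all 14635 genes, 0% passed the adjusted threshold and 3.4% the unadjusted one, and DESeq2 called 15 genes in all and 0 of the 8. The ABS and sham libraries overlapped for each of the 8, while they did not overlap for 8.73% of all genes. Estimates were below 0 for 7 of the 8 genes, Ccnd1 being the exception, as they were for 50.2% of all genes.

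Intervals at P7 bounded the differences that these libraries allow. Mki67 averaged 133 ± 18.3 CPM with ABS and 149.7 ± 37.5 CPM with sham surgery (SD, n = 3 each), a log2 fold change of -0.16 with a 95% interval of -0.62 to 0.29, that is from 0.653 to 1.22 times the sham level (edgeR adjusted p = 1.00). Ccnb1 was at 28.2 ± 4.84 and 32.0 ± 8.18 CPM (SD, n = 3 each) and its interval ran from 0.638 to 1.22 times. Cdk1 was at 36.2 ± 5.11 and 42.7 ± 12.0 CPM, and its interval ran from 0.596 to 1.21 times. Pcna was at 81.9 ± 4.46 and 87.5 ± 20.1 CPM, with an interval of 0.730 to 1.20 times. For Ccna2, Top2a, Ccnd1 and Cdkn1a the upper bounds were 1.12, 1.22, 1.23 and 1.32 times the sham level. Sham replicate 1 was the highest of the 6 libraries of P7 for every gene but Ccnd1. Without it, the estimates of Mki67, Top2a, Ccna2, Ccnb1, Pcna and Cdkn1a turned from below to above 0, at 0.05, 0.05, 0.04, 0.04, 0.07 and 0.16 on the log2 scale.

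**Figure D2:**
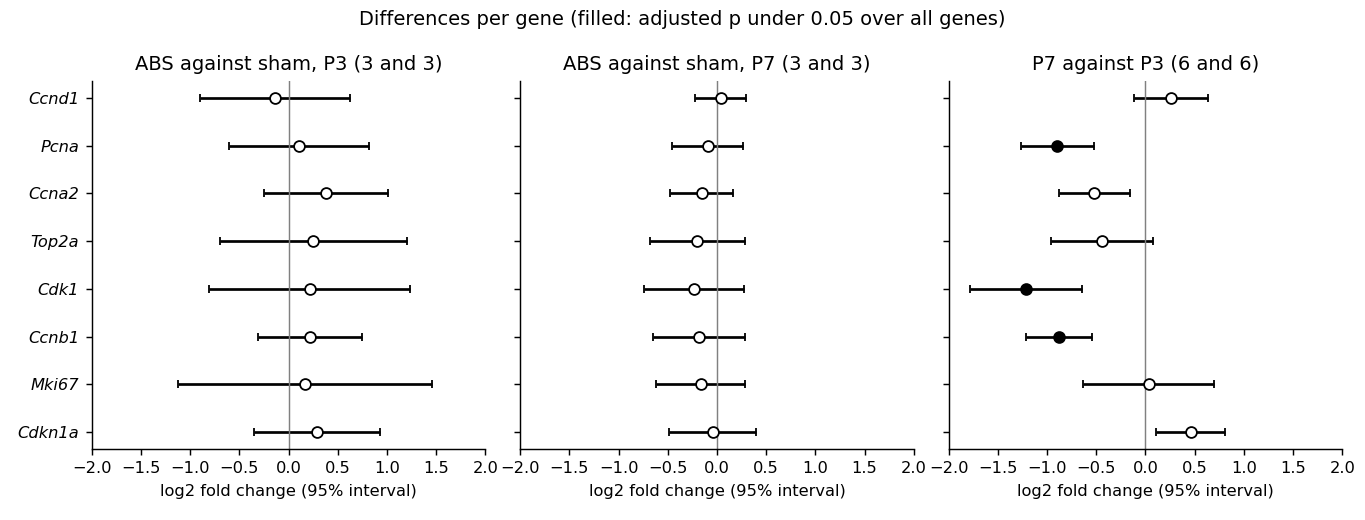
Log2 fold change (horizontal axis) and 95% interval of each gene from edgeR for ABS against sham at P3, ABS against sham at P7, and P7 against P3 over both surgery groups. Filled points have an adjusted p under 0.05 over all genes tested and are Pcna, Cdk1 and Ccnb1 in the comparison of the days, and the intervals of P3 are wider than those of P7.

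At P3, 0 of the 8 genes passed edgeR's adjusted threshold for ABS against sham, as for 0% of the 14222 genes tested, and 0 had an unadjusted p under 0.05, as against 0.33% of genes. DESeq2 called 4 genes in all and 0 of the 8. The groups overlapped for each of the 8 genes and did not for 3.52% of all genes. The largest estimate was that of Ccna2, with a mean of 56.9 ± 9.02 CPM after ABS and 44.3 ± 10.0 CPM after sham surgery (SD, n = 3 each). Its log2 fold change was 0.38 with a 95% interval of -0.25 to 1.01 (edgeR adjusted p = 1.00). For Mki67 the interval ran from -1.12 to 1.46, or from 0.460 to 2.75 times the sham level, so that these libraries allow differences within that range. Without the 3 libraries with the fewest detected genes, which leaves 1 ABS library against 2 sham libraries, the estimates of Cdk1, Ccnd1 and Cdkn1a had the other sign.

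Whether the effect of banding differed between the days was tested as an interaction over all 12 libraries. With edgeR, 0 of the 8 genes passed the adjusted threshold, as for 0% of 15236 genes, and 0 had an unadjusted p under 0.05, as against 1.16% of genes. DESeq2 called 5 genes in all and 0 of the 8. Estimates were below 0 for 7 of the 8 genes, from -0.18 for Pcna to -0.52 for Ccna2, and 0.19 for Ccnd1, with every 95% interval including 0. The median estimate was -0.35 over the 8 genes and 0.03 over all genes. The share of all genes below 0 is not given here. As the 8 genes were measured in the same libraries, their signs are not independent, and their number was not tested.

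The third question was whether the genes moved together from one library to the next. At P7, Ccnb1 followed Mki67 with a Pearson r of 0.994 over 6 libraries (exact permutation p = 0.00139, Spearman rho of 1), and r was 1.00 after the 2 libraries farthest from the median of Mki67 were left out. Cdk1 correlated with Mki67 at 0.965, Top2a at 0.935, Ccna2 at 0.936 and Pcna at 0.893, with rho of 0.886, 0.886, 0.829 and 0.886. The inhibitor Cdkn1a also followed Mki67 across the libraries of P7, with r of 0.965 and rho of 0.943. For these 6 genes the exact permutation p of r was 0.00139 to 0.0208, and after Benjamini-Hochberg adjustment over the 14 relations computed it was 0.0194 to 0.0417. Adjusted p-values of rho passed 0.05 for Ccnb1 (0.0389) and not for the other 5 (0.0667 to 0.102). Ccnd1 was at r = 0.767 (adjusted exact p = 0.108). Without the 2 farthest libraries, r was 0.873 for Cdk1, 0.899 for Top2a, 0.662 for Ccna2, 0.785 for Pcna, 0.940 for Cdkn1a and 0.960 for Ccnd1. Among the 9129 other genes averaging 10 CPM or more, 0.0438% correlated with Mki67 at P7 at least as highly as Ccnb1, 0.318% as Cdk1, 0.340% as Cdkn1a, 0.876% as Ccna2, 0.887% as Top2a, 1.87% as Pcna and 5.75% as Ccnd1.

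**Figure D3:**
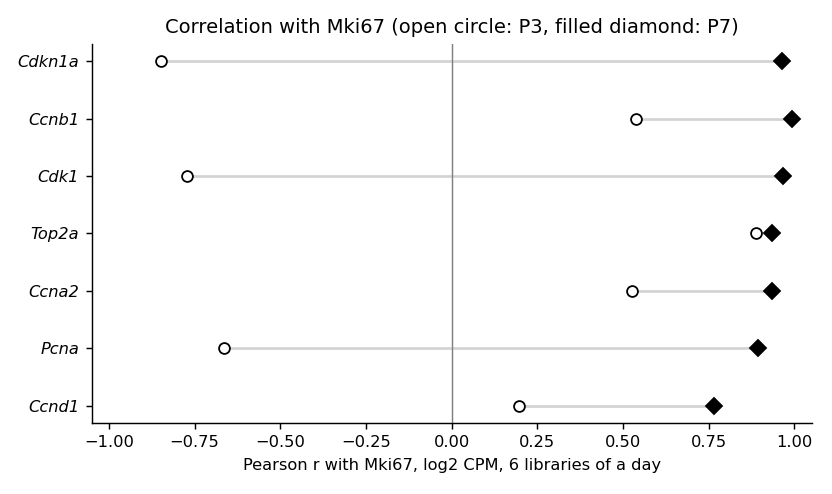
Pearson r of log2 CPM with Mki67 (horizontal axis) over the 6 libraries of P3 (open circles) and of P7 (filled diamonds) for each of the other 7 genes. At P7 the points lie between 0.767 and 0.994, and at P3 they spread from -0.849 for Cdkn1a to 0.888 for Top2a.

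At P3 the correlations spread more widely. Top2a followed Mki67 with r = 0.888 and rho = 0.943 (exact permutation p of r = 0.0208, adjusted 0.0417, and adjusted p of rho = 0.0667), and r was 0.825 without the 2 farthest libraries. Ccna2, Ccnb1 and Ccnd1 were at 0.525, 0.537 and 0.197 (adjusted exact p = 0.316, 0.305 and 0.700), while Cdk1, Pcna and Cdkn1a were at -0.771, -0.665 and -0.849 (adjusted exact p = 0.113, 0.180 and 0.0535). The 2 farthest libraries of P3 were ABS replicate 3 and sham replicate 1, which had the most detected genes of that day (17530 and 18359). Without them, r changed sign for Cdk1 (0.367) and Pcna (0.342) and was -0.855 for Cdkn1a and 0.818 for Ccnd1. The negative values of Cdk1 and Pcna thus depended on these 2 libraries. Those left included the 3 with the fewest detected genes, so the values without the 2 are no safer. Of the 9129 genes, 14.9% correlated with Mki67 at P3 at least as highly as Top2a did, and 38.4% as Ccnb1 did. Values as low as those of Cdkn1a, Cdk1 and Pcna were found for 19.6%, 27% and 33.4% of these genes. The difference between the days in these correlations was not tested.

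Counts of 2 genes within a library, which no scaling of libraries can change, also spread more widely at P3. These ratios were chosen after the counts had been seen and are given as a description. For each count of Cdk1 there were 3.69, 3.70 and 3.66 counts of Mki67 in the ABS libraries of P7 and 3.50, 3.24 and 3.88 in the sham libraries of P7, so that the highest ratio was 1.20 times the lowest. At P3 the ratio was 0.691, 0.758 and 4.80 in the ABS libraries (replicates 1, 2 and 3) and 3.82, 0.777 and 1.23 in the sham libraries (same order), and the highest was 6.95 times the lowest. The 3 libraries with the fewest detected genes held the 3 lowest ratios, and sham replicate 3, with 17259 detected genes, was near them. ABS replicate 3, with 17530 detected genes, and sham replicate 1, with 18359, were above and within the range of P7, respectively. Ccnb1 per Cdk1 spread likewise, from 0.425 to 1.14 at P3 and from 0.696 to 0.821 at P7.

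**Figure D4:**
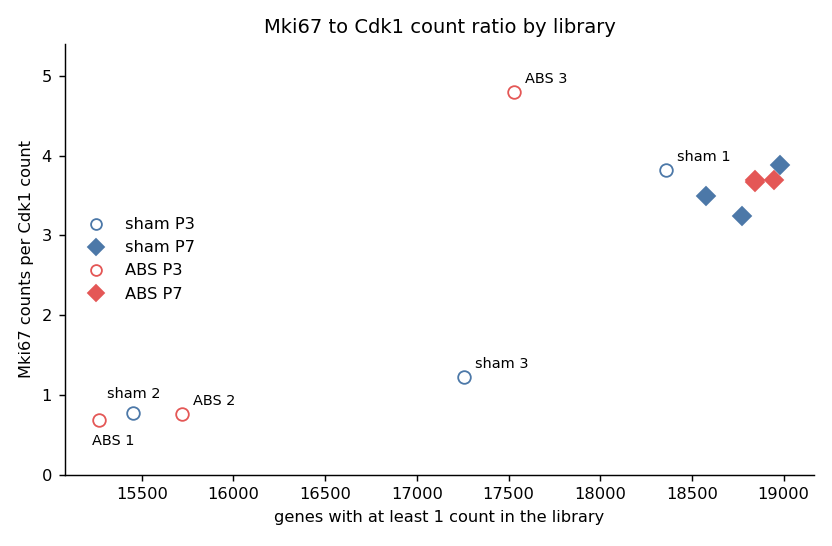
Mki67 counts per Cdk1 count (vertical axis) against detected genes, those with 1 count or more (horizontal axis), for the 12 libraries, with the libraries of P3 named. The 6 libraries of P7 lie together at 3.24 to 3.88, and at P3 4 libraries lie at 0.691 to 1.23 and the other 2 at 3.82 and 4.80.

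Of the 9 ratios computed, 3 did not overlap between the days and the other 6 did, and how often ratios of other genes do so was not tested. Cdkn1a had 0.195 to 0.318 counts per count of Pcna at P3 and 0.530 to 0.683 at P7, without overlap, and 0.199 to 0.300 in the 3 libraries of P3 left without those with the fewest detected genes. Per count of Ccnb1, Cdkn1a had 0.496 to 1.03 counts at P3 and 1.58 to 1.80 at P7. Ccnd1 had 0.463 to 0.947 counts per count of Pcna at P3 and 1.34 to 1.80 at P7. Between ABS and sham libraries, each of the 9 ratios overlapped at P3. At P7, 8 of the 9 overlapped, and Cdkn1a per Ccnb1 was at 1.80, 1.75 and 1.77 in the ABS libraries and at 1.58, 1.59 and 1.67 in the sham libraries. As the ratios were chosen after the counts had been seen, this separation of 1 in 9 is given with no test.

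The genes most like Mki67 over all 12 libraries were not among the other 7. Ranking 9130 genes by Pearson r of their log2 CPM, all averaging 10 CPM or more, the nearest were ENSRNOG00000009275 (r = 0.963) and ENSRNOG00000022325 (r = 0.962), whose r was 0.977 and 0.964 within P3 and 0.954 and 0.971 within P7. Top2a was at 0.712, which ranked 1608, and Ccnb1 at 0.097, which ranked 4312. These correlations are descriptions over libraries of both days, whose number of detected genes differed as given above.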

How the data were processed

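Left ventricular RNA of 12 rats was sequenced in 4 groups of 3 (ABS and sham at P3 and P7), grouped by sample title. The deposited values are counts of reads per gene, not normalized. By the study's methods the authors removed adapter, poly-N and low-quality reads and counted with featureCounts. The submitters' processing notes name HISAT2 2.0.5 and the mouse builds GRCm38 and mm10, whereas the rows are 32883 rat Ensembl genes and 1850 numbered rows of the authors' own (0.983% to 1.27% of counts). The build is therefore unsettled and no gene coordinates of the counts are given. The strand setting is not given in the sources used here. RefSeq (GRCr8) lists pseudogenes of Mki67 (1), Cdk1 (1) and Pcna (3), with which reads could have been shared.

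The 8 genes, and the lists and tests, were chosen with earlier results of these data known. As 0 of the identifiers matched the RefSeq table, wider cell cycle lists and cell type markers, planned by symbol, were not analysed here. Of the 5 genes most correlated with Mki67, the first 2 are named by identifier.

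Counts were tested in R 4.3.3 with edgeR 4.0.16 (TMM, filterByExpr, robust quasi-likelihood F test, two-sided, Benjamini-Hochberg over all genes tested). The 95% intervals use the standard error and degrees of freedom of that test. Log2 CPM used a prior count of 2. The fit was tested on simulated data. The p-values measure the spread between rats as far as each library is 1 rat, and, although the methods say that operated pups went back to a mother in a group, which libraries share a litter is not given in the sources used here. Alternatives were DESeq2 1.42.0, RLE size factors, no filter, all 12 libraries in 1 fit, the replicate block, voom from limma 3.58.1 with a weight per library, detected genes as a covariate, omission of the 3 libraries of P3 with the fewest detected genes, and omission of each library in turn.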

Additional observations from a re-analysis of the deposited data

How the results depend on the processing

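For the 8 genes, no alternative called a gene in ABS against sham on either day or in the interaction nor did any fit without 1 library. Ccnb1, Pcna and Cdk1 stayed lower at P7 over both surgery groups in every alternative and passed the adjusted threshold in all 12 fits without 1 library. Of the 8 genes, 5 were called there with DESeq2 (4123 genes in all), 4 with quality weights (7304), 1 without the 3 libraries of P3 with the fewest detected genes (506) and 0 with detected genes as a covariate (124), which on their own separate the days. Each fit without 1 library called 3 or 4 of the 8 over both surgery groups. Where 4 were called, the gene gained was Ccna2, or Cdkn1a without ABS replicate 1 of P3 (edgeR adjusted p = 0.0462). The causes of the changes were not tested, except that fewer libraries enter some fits. The spread among the libraries of P3 set the widest intervals, and the 3 libraries per group allow no exact permutation p under 0.1 within a day.

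Without the 3 libraries, P3 holds 1 ABS library (replicate 3) and 2 sham libraries, so values for ABS against sham at P3, for the interaction and for the ABS group rest on a single ABS library of P3 assumed to vary like the other groups. Numbers of genes past the adjusted threshold over all genes moved as follows. At P3 they went from 0 to 4 with DESeq2 and 8 without the 3 libraries. At P7 they went from 0 to 15 with DESeq2, 3 without the filter and 1 to 3 without 1 library. The interaction went from 0 to 5 with DESeq2 and 1 with quality weights. P7 against P3 went in the sham group from 1 to 412 with DESeq2, 2 without the filter, 6707 with quality weights, 8 with detected genes, 0 without the 3 libraries, and 0 to 4820 without 1 library (4820 without sham replicate 1 of P3). In the ABS group it went from 2 to 529 with DESeq2, 14 with all 12 libraries in 1 fit, 6791 with quality weights, 1047 with detected genes, 486 without the 3 libraries, and 0 to 7468 without 1 library (7468 without ABS replicate 3 of P3). Over both groups it went from 2603 to 4123 with DESeq2, 7304 with quality weights, 124 with detected genes, 506 without the 3 libraries, and 1069 to 6232 without 1 library (6232 without ABS replicate 3 and 5493 without sham replicate 1 of P3). Of the 8 genes, the sham group gave 4 with quality weights and 0 to 2 without 1 library. The ABS group gave 4 with DESeq2 and with quality weights, 1 with detected genes (Mki67), 5 without the 3 libraries (Mki67, Top2a, Ccna2, Ccnb1 and Pcna) and 0 to 4 without 1 library.

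Replicate numbers come from no shared animal. Deviations of same-numbered ABS and sham libraries correlated at -0.446, 0.361 and -0.00765 for replicates 1, 2 and 3 of P3, and of P7 at 0.011, 0.0545 and 0.0045. With 3 libraries per group, such values cannot decide whether same-numbered libraries share a litter or a batch. The main fits did not pair them. When the replicate block was added, 0 genes passed in either surgery group for P7 against P3, the same 3 of the 8 genes passed over both groups among 2203 genes in all, and Mki67 in the ABS group turned to 0.084.

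Log2 fold changes of uncalled genes changed sign as follows. For ABS against sham at P3, Mki67 was at -0.22 with quality weights, Cdk1 and Pcna at -0.15 and -0.069 with detected genes, and Cdk1, Ccnd1 and Cdkn1a at -0.39, 0.24 and -0.030 without the 3 libraries. Without 1 library it ranged from -0.58 to 0.55 for Mki67, -0.022 to 0.55 for Top2a, -0.16 to 0.50 for Cdk1, -0.11 to 0.31 for Pcna and -0.36 to 0.049 for Ccnd1. At P7, Ccnd1 was at -0.024 with quality weights, and with detected genes Mki67, Top2a, Ccnb1, Pcna and Cdkn1a were at 0.016, 0.032, 0.000153, 0.081 and 0.12. Without 1 library it ranged from -0.30 to 0.053 for Mki67, -0.37 to 0.054 for Top2a, -0.26 to 0.036 for Ccna2, -0.32 to 0.037 for Ccnb1, -0.26 to 0.074 for Pcna, -0.084 to 0.13 for Ccnd1 and -0.17 to 0.16 for Cdkn1a. In the interaction, Mki67 was at 0.034 with quality weights, Cdk1 and Pcna at 0.00105 and 0.034 with detected genes, and Cdk1 and Ccnd1 at 0.17 and -0.19 without the 3 libraries. Without 1 library it ranged from -0.72 to 0.40 for Mki67, -0.39 to 0.010 for Pcna and -0.0026 to 0.39 for Ccnd1. For P7 against P3 in the sham group, Ccnd1 was at -0.058 with quality weights and Mki67 at -0.32 with detected genes and -0.033 without the 3 libraries. Without 1 library it ranged from -0.041 to 0.56 for Mki67, -0.49 to 0.036 for Top2a and -0.079 to 0.32 for Ccnd1. In the ABS group, Mki67 was at 0.40 with quality weights and from -0.49 to 0.59 without 1 library, but was called as lower at P7 with detected genes (-2.11, edgeR adjusted p = 0.0186) and without the 3 libraries (-0.99, adjusted p = 0.0176), and Ccnd1 at -0.35 with detected genes. Over both groups, Mki67 was at -0.91 with detected genes, -0.43 without the 3 libraries and from -0.11 to 0.36 without 1 library. RLE size factors, an alternative for the correlations with Mki67 chosen after seeing the data, turned none of the 14 and changed no call among them. The ratio ranges without the 3 libraries were chosen then too.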
